A study of Homo sapiens with 3 samples.

Results

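The genes of PU.1 and its closest relative, SPI1 and SPIB, and the C/EBP genes CEBPA, CEBPB, CEBPD, CEBPE and CEBPG were examined for 2 histone marks in wild-type KBM7 cells, an untreated near-haploid line derived from a human chronic myeloid leukaemia. The 7 genes were listed by name, not by any measured value, and stand among 19974 protein-coding genes of chromosomes 1 to 22 and X. H3K27ac, an acetylation of active promoters and enhancers, was profiled with the Abcam antibody ab4729 and H3K4me3, a methylation of promoters, with the Millipore antibody 07-473, each in 1 library beside 1 input library without antibody. With 1 library per mark and no second condition, the values below have no replicate error and no test was made. Every peak that overlapped a gene record, widened by 50 kb on either side, was taken, which gave 96 of 96659 H3K27ac peaks and 31 of 36951 H3K4me3 peaks. The authors' table of super-enhancers, long regions of joined H3K27ac peaks, had 1 region in these spans, and it was assigned to SPI1.

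PU.1 is an ETS-family factor that opens enhancers in blood cells and is needed for monocytes, granulocytes and B cells, and SPI-B is its relative in B cells and plasmacytoid dendritic cells. The C/EBP proteins are basic leucine zipper factors that pair with one another. C/EBPα starts granulocyte differentiation and often binds beside PU.1, C/EBPβ acts in monocytes and in emergency granulopoiesis, C/EBPδ is induced by inflammatory signals, C/EBPε drives the late steps of granulocyte maturation, and C/EBPγ is widely expressed and lacks a typical activation domain.

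The peak lists give, for each peak, the authors' fold enrichment at the summit over an expected background. The median peak of the lists had a fold of 4.47 on 21 fragments for H3K27ac and 10.2 on 39 fragments for H3K4me3, where the fragments are those piled up at the summit. Fold intervals below are 95% Poisson intervals of these fragments with the background held fixed, so they cover counting error only. Of the marker genes used to check the line, the myeloid genes MPO, CD33 and LYZ had both marks within 1 kb of the start, as 61.0% of all protein-coding genes did, and none of 4 erythroid genes had both. The myeloid marker list also holds SPI1 and CEBPA, whose values are the subject here and do not check the line. The B cell genes CD79A and PAX5 also had both marks, with H3K27ac folds of 43.7 and 37.4, and so did 2 of 3 T cell genes, CD3E and GATA3.

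At the start 6 of the genes carried both marks and SPIB carried a faint H3K27ac peak without H3K4me3. H3K27ac was found within 1 kb of the start of 7 of 7 genes, beside 63.1% of all protein-coding genes. H3K4me3 was found at 6 of 7, beside 67.6%, and both marks at 6 of 7, beside 61.0%. Their median fold at the start was 26.3 for H3K27ac, against 22.9 over the 12609 genes with that mark, and 51.6 for H3K4me3, against 62.9 over 13512 genes. The intervals were wide, with a median of 2872 bp against 1819 bp for H3K27ac and 3811.5 bp against 2549 bp for H3K4me3. The H3K27ac folds of the 7 genes ran from 3.68 to 34.3. The interquartile range of all genes with the mark was 15.4 to 30.3, which is not their full range, so the spreads cannot be compared.

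CEBPA had the highest fold of the 7 genes for both marks, but not the most fragments at the H3K27ac summit. SPI1, CEBPD and CEBPG had more, over expected backgrounds of 7.25, 6.59 and 6.35, beside 2.85 at CEBPA. The first place of CEBPA by H3K27ac fold therefore rests on its lower background. The H3K27ac interval of CEBPA (hg38, chromosome 19, 33297990 to 33302595) covered the single-exon gene over 4606 bp. It reached a fold of 34.3 (28.7 to 40.6) on 131 fragments. A separate interval of 1176 bp with a fold of 28.01 lay just upstream, at the near end of CEBPA-DT, a divergent long non-coding RNA gene. H3K4me3 spanned both starts in 1 interval of 4969 bp with a fold of 85.6 (75.5 to 96.7) on 257 fragments, higher than at 91.3% of the genes with the mark. CEBPB followed for H3K4me3, with a fold of 64.6 (56.7 to 73.2) over 3741 bp, and its H3K27ac interval of 2872 bp had a fold of 24.6 (20.4 to 29.4). Both CEBPB summits lay inside its record, 1.22 kb from the start, near an end of the antisense RNA gene CEBPB-AS1.

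CEBPG, SPI1 and CEBPD had folds close to one another. CEBPG reached 26.3 (22.7 to 30.2) for H3K27ac over 2643 bp and 53.0 (47.0 to 59.5) for H3K4me3 over 3100 bp. SPI1 reached 30.5 (26.9 to 34.5) for H3K27ac over 6125 bp, wider than at 96.7% of the genes with that mark, and 50.2 (44.7 to 56.2) for H3K4me3 over 3882 bp. CEBPD reached 29.8 (26.0 to 33.9) for H3K27ac over 5510 bp and 43.3 (38.7 to 48.3) for H3K4me3 over 4918 bp, intervals that also lie within 1 kb of an end of SPIDR. By fragments CEBPD had the highest H3K4me3 summit of the 7 genes, with 318 against 299 at SPI1 and 257 at CEBPA, but its expected background was 6.37, beside 2.02 at CEBPA and a list median of 2.66. CEBPD lies on the chromosome 8 that KBM7 cells are known to hold in an extra copy, and the part of copy number in its values was not tested.

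CEBPE and SPIB stood at the low end. At CEBPE an H3K27ac interval of 2578 bp (chromosome 14, 23118190 to 23120767) covered the start with a fold of 18.5 (14.7 to 23.0), yet the H3K4me3 peak beside it was 525 bp wide with a fold of 5.94 (3.65 to 9.20) on 18 fragments, higher than at 2.14% of the genes with the mark. That H3K4me3 summit lay 699 bp upstream and the peak did not cover the start itself. At SPIB the sole peak within 1 kb of the start was an H3K27ac peak of 186 bp with a fold of 3.68 (2.08 to 6.11) on 13 fragments. In the order of H3K27ac folds, CEBPA, SPI1, CEBPD, CEBPG, CEBPB and CEBPE each overlapped the interval of the next, whereas CEBPE and SPIB did not overlap. For H3K4me3 the intervals of CEBPB, CEBPG, SPI1 and CEBPD overlapped from one to the next, and gaps separated CEBPA from CEBPB and CEBPD from CEBPE.

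**Figure D1:**
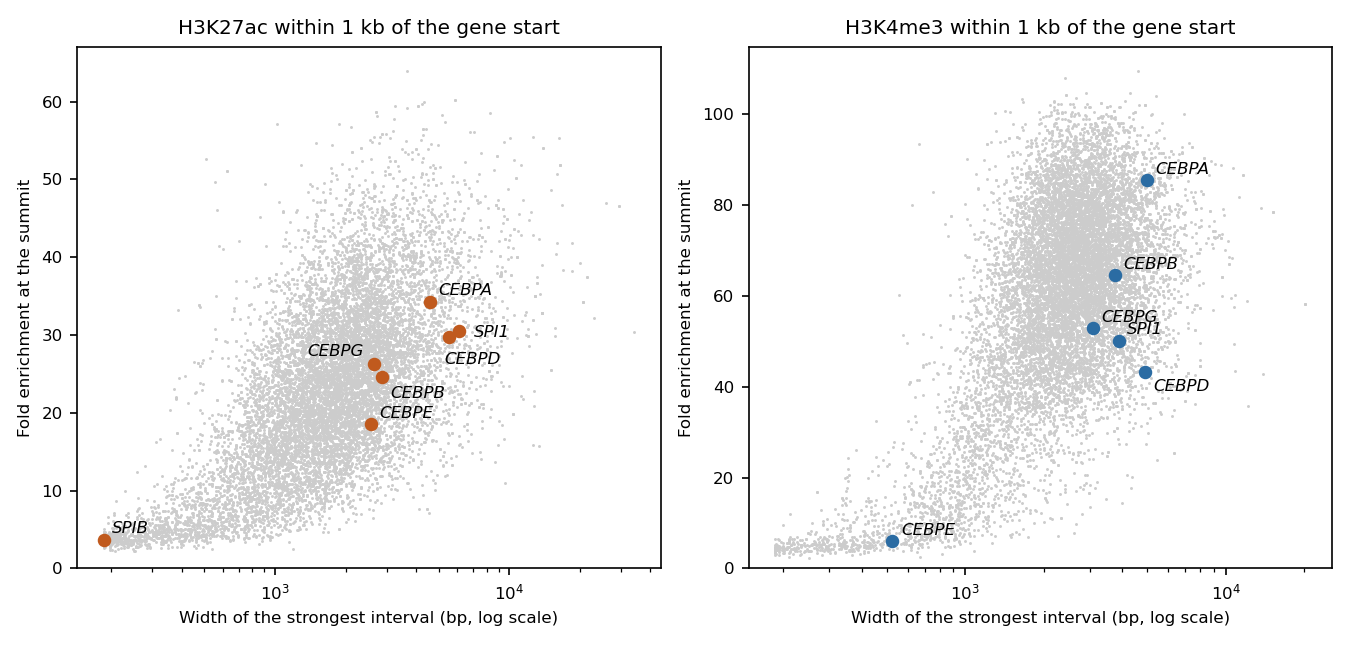
Fold enrichment at the summit (y axis) against the width of the strongest interval within 1 kb of the gene start (x axis, bp, log scale) for H3K27ac and H3K4me3; coloured points are the 7 genes and grey points all protein-coding genes with the mark. CEBPA is highest of the 7 in both panels, CEBPE has an H3K4me3 fold of 5.94, and SPIB, with an H3K27ac fold of 3.68, has no H3K4me3 point.

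The promoter sequences, from 250 bases before to 50 after the RefSeq start (GRCh38.p14), differed in their content of CG dinucleotides, the sites of DNA methylation. They are shown for CEBPA and CEBPG, with H3K4me3 folds of 85.6 and 53.0, and for CEBPE and SPIB, which have little or none, with each CG in capitals. The windows are chr19:33302485-33302784 on the minus strand for CEBPA, chr19:33373459-33373758 on the plus strand for the upstream start of CEBPG, chr14:23119206-23119505 on the minus strand for CEBPE and chr19:50418688-50418987 on the plus strand for SPIB.
CEBPA: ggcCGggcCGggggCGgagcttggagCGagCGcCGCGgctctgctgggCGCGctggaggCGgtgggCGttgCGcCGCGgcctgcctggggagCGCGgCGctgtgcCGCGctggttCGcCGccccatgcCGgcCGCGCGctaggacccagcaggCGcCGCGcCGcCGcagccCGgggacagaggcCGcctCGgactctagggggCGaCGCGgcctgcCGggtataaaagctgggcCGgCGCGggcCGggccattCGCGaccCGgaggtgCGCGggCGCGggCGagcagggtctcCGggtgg
CEBPG: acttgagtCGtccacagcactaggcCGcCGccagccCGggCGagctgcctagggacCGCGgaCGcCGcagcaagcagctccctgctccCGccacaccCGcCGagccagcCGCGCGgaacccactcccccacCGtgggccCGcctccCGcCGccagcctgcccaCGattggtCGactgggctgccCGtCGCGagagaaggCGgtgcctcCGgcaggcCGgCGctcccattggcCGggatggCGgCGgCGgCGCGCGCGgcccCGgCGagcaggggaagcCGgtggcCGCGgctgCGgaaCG
CEBPE: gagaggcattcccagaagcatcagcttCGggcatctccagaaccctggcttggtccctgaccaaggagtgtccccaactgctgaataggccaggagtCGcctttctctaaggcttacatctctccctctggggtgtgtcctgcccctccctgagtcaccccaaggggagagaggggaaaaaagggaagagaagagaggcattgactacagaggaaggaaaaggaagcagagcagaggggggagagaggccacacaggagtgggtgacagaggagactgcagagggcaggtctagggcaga
SPIB: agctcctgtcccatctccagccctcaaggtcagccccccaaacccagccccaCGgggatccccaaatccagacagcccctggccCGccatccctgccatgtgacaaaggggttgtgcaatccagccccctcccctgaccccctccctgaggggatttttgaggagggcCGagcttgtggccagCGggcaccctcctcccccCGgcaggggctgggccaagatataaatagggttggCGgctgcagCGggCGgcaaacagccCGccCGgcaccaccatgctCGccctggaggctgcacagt

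CEBPA held 50 CG dinucleotides in its 300 bases, more than 98.6% of 22132 protein-coding promoters, whose median was 21. The windows at the starts of CEBPG held 43 and 45, and those of CEBPB 31 and 43. SPIB held 11 and CEBPE 2, at percentiles 32.5 and 8.18. The GC content of CEBPE was nevertheless 57.7%, near the median of 62.3%, so its window is poor in the dinucleotide rather than in G and C. Over all these promoters H3K4me3 was present at 90.1% of those with 20 or more CG, at 68.1% of those with 10 to 19 and at 23.3% of those with fewer than 10. Those with fewer than 10 that had the mark reached a median fold of 41.0, beside the 5.94 of CEBPE. The mark was counted within 1 kb of each start, so a window with few CG can share the peak of a nearby start rich in CG. The 41.0 is therefore not the level of CG-poor starts standing alone. The RefSeq promoter table used here did not list SPI1 or CEBPD.

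**Figure D2:**
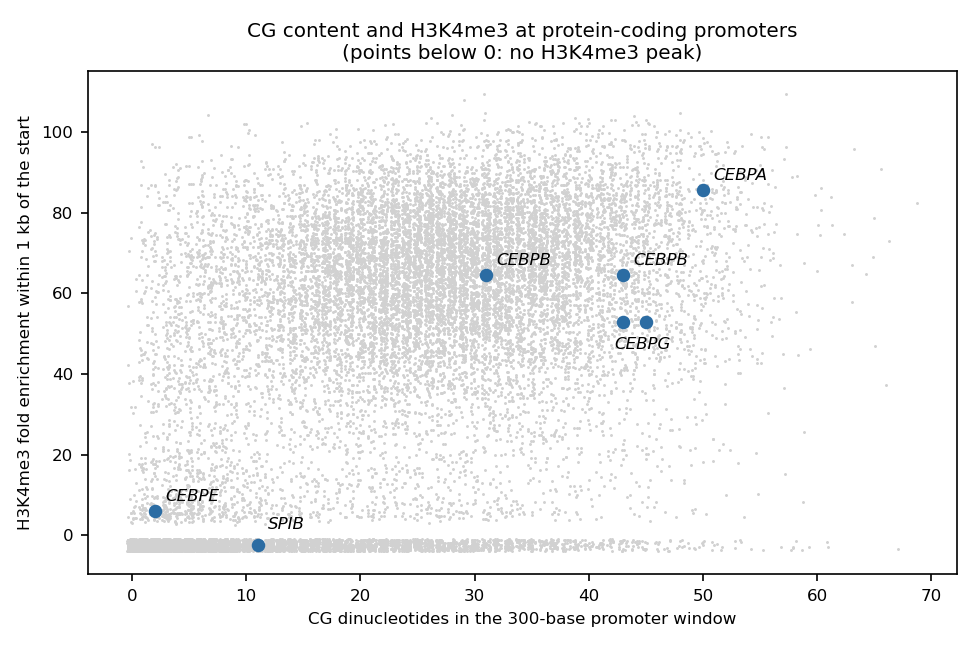
H3K4me3 fold enrichment within 1 kb of the start (y axis) against the number of CG dinucleotides in the 300-base promoter window (x axis); blue points are the windows of 5 of the genes, 2 windows each for CEBPB and CEBPG, and grey points all protein-coding promoters, spread slightly for visibility, with those lacking a peak drawn below 0. CEBPA, CEBPB and CEBPG lie at 31 to 50 CG, and CEBPE (2) and SPIB (11) lie at the lower left.

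Exact letters of the factors' own motifs were counted in the windows of the 5 genes that the promoter table lists. The C/EBP pattern TTGCNNAA, searched on both strands, matched once, at SPIB on the minus strand 139 bases before the start, and 8.69% of all promoters held it. The PU.1 core GAGGAA matched once, at CEBPE 41 bases before the start, and 27.9% of all promoters held it. The longer GAGGAAGT, which contains that core, matched in none of the windows and in 2.63% of all promoters. With so few windows these counts cannot be told apart from the shares over all promoters. With 8 bases on each side and the match in capitals, the sites read as follows.
SPIB: caaaggggTTGTGCAAtccagccc
CEBPE: tgactacaGAGGAAggaaaagg

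Over the whole spans, start peaks included, SPI1 had the most H3K27ac of the 7 genes. Its span held 31 H3K27ac peaks, which covered 31.2% of it, a share higher than around 97.6% of protein-coding genes. CEBPA followed with 24 peaks and 22.4% (higher than 93.2%), then CEBPB with 17 peaks and 13.9%, CEBPE with 7 and 8.33%, CEBPD with 6 and 6.90%, SPIB with 9 and 6.46%, and CEBPG with 2 and 3.46%. The median gene had 7 peaks and 4.22% covered. H3K4me3 covered 12.6% of the SPI1 span and between 3.40% at CEBPG and 8.65% at CEBPB of the others, beside a median of 3.70%. Of the 96 H3K27ac peaks 10 lay at the genes' own starts, 11 within 1 kb of the start of another gene, 6 at an end of a gene whose start is not listed, and 69 flanking or inside the genes. The 10 include a weak peak of fold 3.36 at the 3′ end of its record, because both ends stood in for the start where the promoter table had none.

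The super-enhancer of SPI1 began 1.70 kb upstream of the gene and reached to 25.8 kb upstream (chromosome 11, 47380245 to 47404366, 24122 bp), mostly within the record of SLC39A13-AS1, also named LOUP, a long non-coding RNA known to arise at the SPI1 upstream element. By the difference between H3K27ac and input signal it had rank 119, with 413 regions below it. It had rank 2 by their ratio and rank 13 by H3K27ac signal per base, measures that do not add up over length as the difference does. Of the regions 450 were longer. The ratio of H3K27ac to input was 20.2, against a median of 8.11 over all super-enhancers. It held 10 H3K27ac peaks that covered 81.6% of it. Among all protein-coding genes 6.45% had a super-enhancer within the same distance and 2.25% were named as a target by symbol, and expression entered the authors' choice of target.

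Inside that region lay the H3K27ac peak with the highest fold in the 7 spans. It was an interval of 8956 bp (chromosome 11, 47387782 to 47396737) with a fold of 39.5 (34.8 to 44.6) on 258 fragments, higher than 99.0% of H3K27ac peaks. Its summit was 15.9 kb upstream of the gene start, in the stretch of 12 to 20 kb where an upstream regulatory element is known to control SPI1 in blood cells. The fold at the SPI1 start was 30.5 (26.9 to 34.5), whose interval ended just below that of this element. The counting intervals of the starts of CEBPA (28.7 to 40.6), POLD1 (28.1 to 38.3) and PSMC3 (26.8 to 36.5) overlapped it. H3K4me3 was also present in it, over 3222 bp with a fold of 29.2 (24.2 to 34.9). A second pair of intervals, with summits 22.1 and 21.5 kb upstream, had an H3K27ac fold of 23.4 (20.1 to 27.2) over 4301 bp and an H3K4me3 fold of 46.3 (38.9 to 54.7) over 1895 bp. That H3K4me3 fold was near the 50.2 at the SPI1 start, but on 137 fragments against 299. The expected backgrounds were 1.98 and 4.98. The other H3K27ac intervals of fold 10 or more in the super-enhancer were at 18.7 kb (14.0), 24.9 kb (10.3) and 4.77 kb (13.0) upstream and had no H3K4me3. Within the gene the strongest was an interval of 2023 bp, 19.02 kb downstream of the start, with a fold of 11.8 (9.50 to 14.6).

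At CEBPA the flanking acetylation lay almost wholly on the downstream side, with 21 of 22 flanking H3K27ac peaks, and no super-enhancer was listed within 4677 kb of the gene. The strongest was an interval of 3078 bp (chromosome 19, 33259237 to 33262314), 41.1 kb downstream of the start, with a fold of 27.9 (23.3 to 33.1) on 128 fragments, higher than 95.2% of H3K27ac peaks. It lies in the stretch of 38 to 46 kb where an enhancer of CEBPA is known in blood cells, and its interval overlaps that of the promoter (28.7 to 40.6). Its H3K4me3 was weaker than at the promoter, with a fold of 9.48 (6.78 to 12.9) over 1274 bp, near the median of 10.2 of all H3K4me3 peaks. Further intervals lay 33.9 kb downstream (fold 18.4, 14.4 to 23.2, over 3030 bp) and 8.96 kb downstream (14.8, 11.7 to 18.4, over 1650 bp), with H3K4me3 folds of 5.47 and 3.24. The 2 other peaks of the enhancer stretch had folds of 4.91 and 4.21. On the other side, the 71174 bp between CEBPA and its neighbour CEBPG held 5 H3K27ac peaks, all close to one gene or the other and none in the 28826 bp that both spans share.

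**Figure D3:**
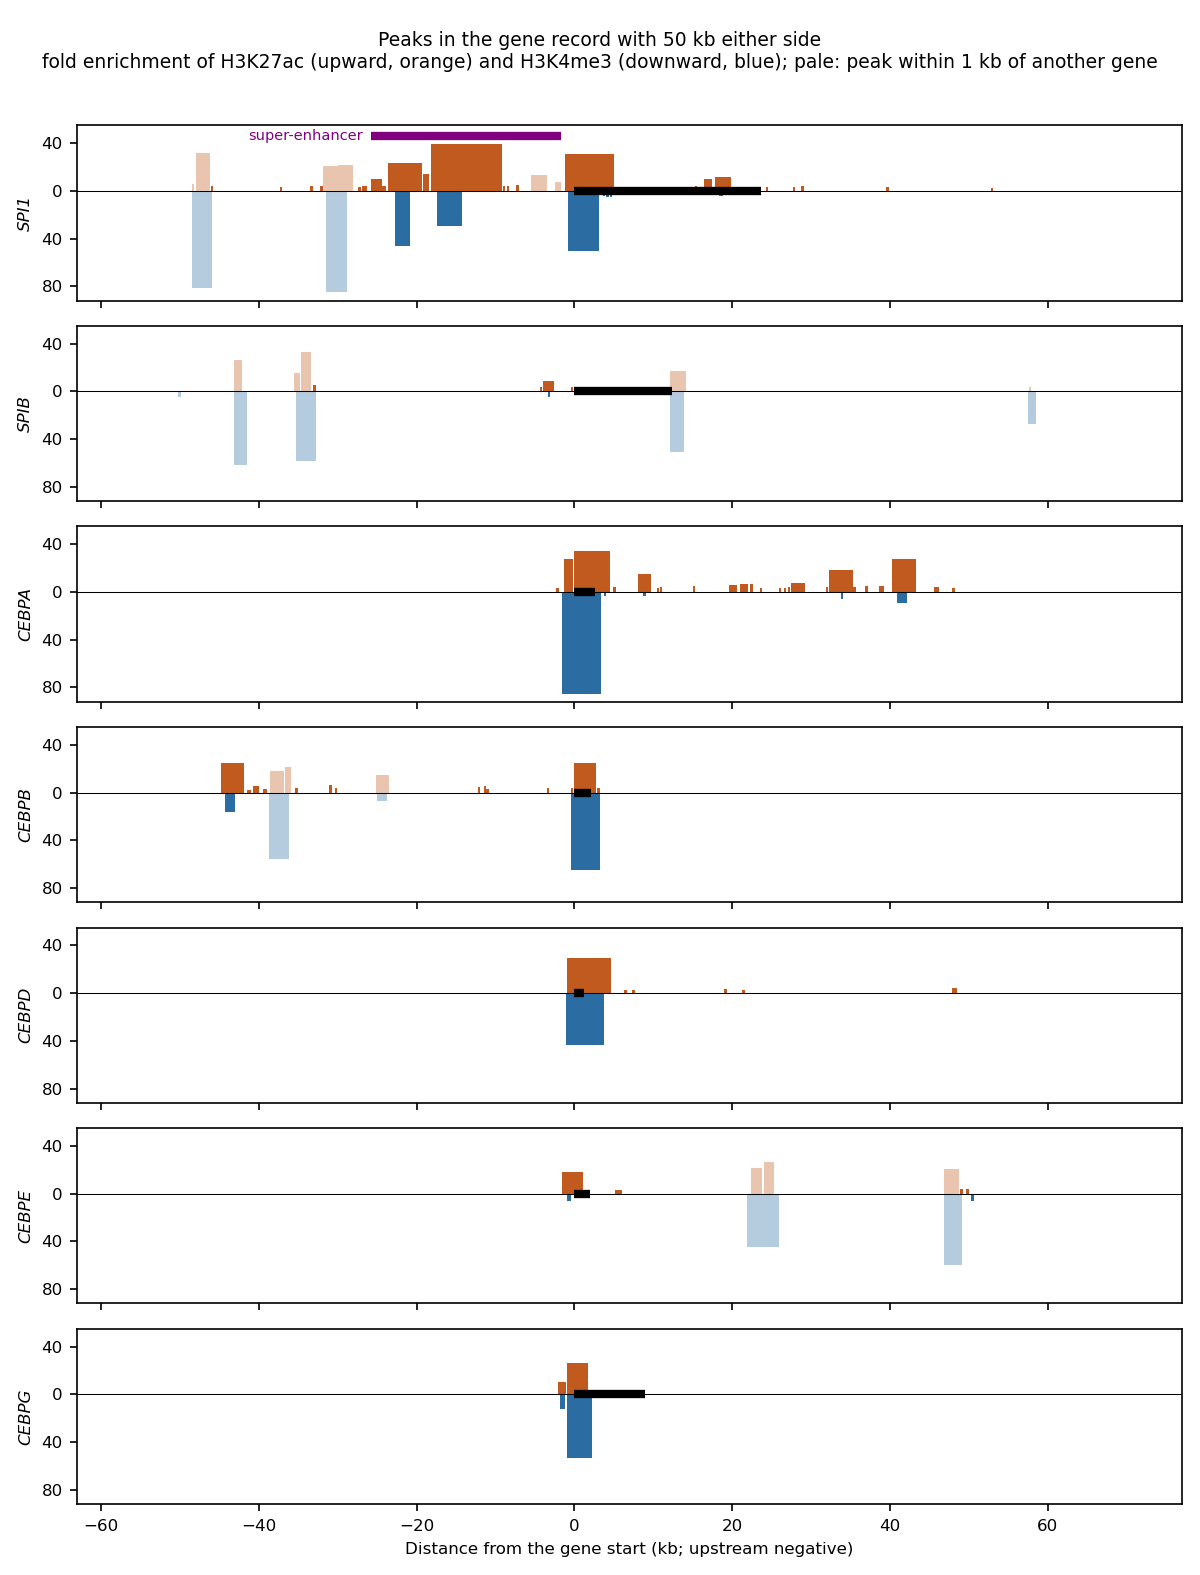
Peaks of H3K27ac (upward, orange) and H3K4me3 (downward, blue) by fold enrichment (y axis) and distance from the gene start in kb (x axis, upstream negative) around each of the 7 genes; black bars are the gene records, the purple bar the super-enhancer, and pale bars lie within 1 kb of a start or end of another gene. SPI1 has its largest H3K27ac interval upstream (fold 39.5), CEBPA has its flanking intervals downstream (27.9 at 41.1 kb), and CEBPG has peak summits only within 2 kb of its start.

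CEBPB had 1 strong flanking element. It was an H3K27ac interval of 2982 bp (chromosome 20, 50145764 to 50148745) with its summit 43.7 kb upstream and a fold of 24.4 (20.7 to 28.7), close to the 24.6 at its start, with an H3K4me3 fold of 15.9 (12.6 to 19.95). It lies inside the PEDS1 gene, whose end nearer to CEBPB carried both marks with H3K27ac and H3K4me3 folds of 21.5 and 55.7. The other 11 flanking peaks of CEBPB had folds of at most 6.44. Another interval, 24.6 kb upstream at an end of LINC01275, had an H3K27ac fold of 14.4 and an H3K4me3 fold of 6.92.

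CEBPD, CEBPE, CEBPG and SPIB had little flanking acetylation of their own. The 5 flanking peaks of CEBPD had folds of 2.71 to 4.24 and no H3K4me3. Its wide start interval was thus the only H3K27ac interval above a fold of 4.24 within 50 kb. The 3 of CEBPE had folds of 3.28 to 4.03. CEBPG had a single flanking interval, 1.39 kb upstream, where H3K27ac reached a fold of 10.6 (8.41 to 13.2) and H3K4me3 12.5. SPIB had 3, of which the strongest was 3.51 kb upstream, with a fold of 9.01 (6.86 to 11.6) over 1388 bp and an H3K4me3 fold of 4.82. At the 3′ end of SPIB both marks were strong, H3K27ac with a fold of 16.9 and H3K4me3 with 50.7, in intervals that also lie within 1 kb of an end of the muscle gene MYBPC2.

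Over the 7 spans 13 of 69 flanking or internal H3K27ac peaks overlapped H3K4me3. Their median fold was 4.03, beside 4.47 for the whole list, so most of these peaks are weak. Folds of 10 or more were reached by 5 at SPI1, 3 at CEBPA, 1 at CEBPB and 1 at CEBPG. The median fold of the 14 flanking or internal H3K4me3 peaks was 5.36.

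**Figure D4:**
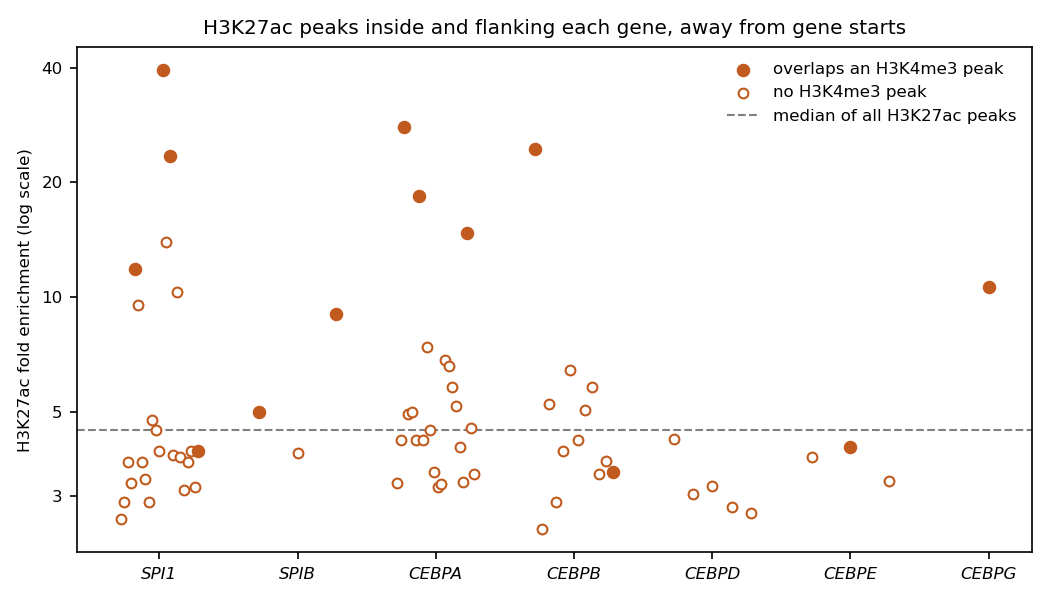
H3K27ac fold enrichment (y axis, log scale) of the 69 peaks inside and flanking each gene, away from gene starts, drawn in genome order within a gene; filled points overlap an H3K4me3 peak and the dashed line is the median of all H3K27ac peaks (4.47). SPI1 reaches 39.5, CEBPA 27.9 and CEBPB 24.4, while CEBPD and CEBPE stay below the dashed line.

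Genes that work with these factors mostly carried both marks, and C/EBP target genes mostly did not. Of 11 partners and regulators 9 had both, with H3K27ac and H3K4me3 folds of 45.2 and 73.7 at RUNX1, 43.4 and 88.1 at GFI1 and 39.3 and 57.5 at MYB, which were also the super-enhancer targets of the list. The exceptions were the PU.1 partners IRF4, with H3K4me3 alone (fold 35.5), and IRF8, which had neither mark and no peak within 50 kb. Of the 4 kin, DDIT3 (34.6 and 86.6), which encodes the C/EBP relative CHOP, ATF4 and ATF5 had both, and SPIC, the third member of the PU.1 subfamily, had neither. Among 12 PU.1 target genes 8 had both, but their median H3K4me3 fold was 11.97. The receptor gene CSF1R had 12.3 and 5.39, CD68 had 31.6 and 6.59, and ITGAM had 15.6 and 9.22, while CD14, CYBB and FCGR1A had neither. Among 12 C/EBP target genes 3 had both (MPO, LYZ and IL6R), 5 had weak H3K27ac alone, with folds of 4.04 to 6.05, and 4 had neither, namely ELANE, LTF, S100A8 and S100A9. Over all protein-coding genes 61.0% had both marks. For MPO, LYZ, ELANE, LSP1, ITGB2, CBFB and TRIB1 either end of the record could count as the start.

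For the 6 genes with both marks at the start, the most similar genes were taken by the distance over percentiles of 5 measures, which were fold and width of each mark at the start and the number of H3K27ac peaks within 50 kb, all from the same 2 libraries. SPIB was left out because it had no H3K4me3 at the start. Nearest to SPI1 were NKD2, PLEKHA2 and PML, at distances of 4.06 to 5.13 percentile points. Nearest to CEBPA were DLX4, SQSTM1 and SPEN (3.30 to 5.58), to CEBPB RHOQ, SNRPA1 and GNL1 (5.06 to 6.74), and to CEBPD GCSAML, ZNF827 and KLF10 (3.90 to 7.67). CEBPG was nearest to C16orf87, ZBED3 and RBBP5 (8.32 to 8.78). CEBPE had the most distant neighbours, NHLRC4, MC1R and F2RL3 (9.47 to 13.9).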

How the data were processed

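Both marks and the input have 1 library each. The submitters' processing notes name the hg38 build, bedtools 2.20.1 and Bowtie2 2.3.4. Peak caller, signal scaling and library totals remain not given in the sources used here. Each deposited peak list gives a fold (ratio) at the summit, a −log10 p, a −log10 q and a score made from that q, and the deposited super-enhancer table gives H3K27ac and input signal per region, their difference as a score, and a rank. Fragments at a summit were sought as whole numbers from the deposited fold and −log10 p, and matched within 0.01 on the −log10 scale in 100% of rows. The recovery was also tested on data simulated with the same formula. That test checks the arithmetic and cannot show which formula the peak caller used.

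Gene starts came from the RefSeq promoter table (GRCh38.p14) for 15813 genes, and both ends of the record stood in for the other 4161, SPI1 and CEBPD among them, whose strand (minus) is general knowledge. Peaks counted with 1 bp of overlap. Python 3.11.15, numpy 2.4.6, scipy 1.17.1 and pandas 2.3.3 were used. No test was run, and Poisson intervals cover counting error only. The genes named are the 7 factor genes, up to 3 strongest flanking peaks per gene and mark, peaks in the known enhancer stretches of SPI1 and CEBPA, genes with a start in a span, the 3 most alike genes, and the strongest, weakest or exceptional genes of 4 lists, some of whose genes are not reported here. Genes, lists and rules were chosen with earlier results of these data known. Alternatives covered the start window, gene ends, summits, peak strength and the flank.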

Additional observations from a re-analysis of the deposited data

How the results depend on the processing

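The counts of genes with a mark at the start stayed within 1.5 times under a window of 500 bp or 2 kb, gene ends, summits, stronger peaks, and, chosen after seeing the data, strand-based starts for SPI1 and CEBPD. With both ends of every record SPIB also counted, giving 7 genes with both marks, because its folds became 16.9 and 50.7 from the intervals at its 3′ end. In the top 50% of each list SPIB lost H3K27ac and CEBPE lost H3K4me3, which left 5 with both. The 96 H3K27ac and 31 H3K4me3 peaks became 59 and 19 with 25 kb flanks, 159 and 55 with 100 kb, and 51 and 18 in the top 50%, where SPI1 and CEBPA kept 15 and 14 H3K27ac peaks. With 100 kb CEBPG had 19 H3K27ac peaks, since the wider flank takes in peaks near CEBPA. The super-enhancer count was 1 in every alternative run. Of 89 values of fold at the starts 88 were unchanged because the same peak was picked again, so they are no check of the values. Starts without a peak in either run were left out of the 89. Of 70 peak counts 44 stayed within 1.5 times and 26 did not. All of the 26 came from the flanks of 25 kb and 100 kb and from the top 50% of each list. Requiring the summit in the span left every count unchanged, and a stricter −log10 q kept every count within 1.5 times. The 44 include the counts of both these settings, so they overstate how stable the counts are to flank and peak strength. No paired analysis was possible because each mark has 1 library. Leaving out a library was not possible for the same reason, and peaks of 12 to 20 fragments carry wide counting errors.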

Other observations

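Several of the strongest peaks in the 7 spans belong to neighbouring genes. Around SPI1 the start of SLC39A13, a zinc transporter gene, had an H3K4me3 fold of 84.5 (74.4 to 95.7). That of PSMC3, a proteasome gene, had 81.7 (72.6 to 91.7). Both folds were above the 50.2 of SPI1 itself, but on fewer fragments, with 250 and 289 against 299. The expected backgrounds were 1.97 and 2.55, beside 4.98 at SPI1. The H3K27ac folds of SLC39A13 and PSMC3 were 21.3 and 31.4. Around SPIB the starts of NR1H2, which encodes the oxysterol receptor LXRβ, and POLD1, a DNA polymerase gene, had H3K27ac folds of 26.7 and 32.9 and H3K4me3 folds of 61.6 and 58.6. Around CEBPE the divergent starts of ACIN1 and C14orf119 shared an H3K4me3 interval of 4063 bp (fold 44.3) with an H3K27ac fold of 26.5, and an internal start of ACIN1 had folds of 20.4 and 59.3.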
